A study of Homo sapiens with 4 samples.

Results

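TNFAIP2, a gene named for its induction by tumor necrosis factor, and 9 further genes of the nuclear factor kappa B (NF-kB) pathway were examined in HCCLM3 cells, a human hepatoma line. The genes were taken by symbol: TNFAIP2, TNFAIP3, NFKB1, NFKB2, RELA, RELB, NFKBIA, NFKBIE, BIRC2 and BIRC3. All 10 were present among the 13036 genes measured, and they held 34 of the 38510 transcripts. The cells had been infected with a lentivirus that expressed either of 2 short hairpin RNAs, a control (shCtrl) or one directed at KIAA1429 (shKIAA1429), with 2 samples in each group and no further treatment named in the labels. Both groups thus shared the cell line and the infection, and the knockdown rested on a hairpin of a single sequence. KIAA1429, listed under the symbol VIRMA, is a subunit of the complex that writes N6-methyladenosine on RNA. The labels do not say whether the replicates were separate cultures, so every p-value measures the spread between these samples, which may be technical. TNFAIP2 was chosen by its own measured values, having been higher after the knockdown in these same samples, and the other 9 by their place in the pathway. For that reason the TNFAIP2 difference is described without a test, and the question was whether the rest of the pathway moved with it.

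NF-kB is a family of dimeric transcription factors built from 5 subunits, RELA, RELB, REL and the products of NFKB1 and NFKB2. In resting cells inhibitor proteins such as IkB alpha (NFKBIA) and IkB epsilon (NFKBIE) hold the dimers in the cytoplasm. Receptors for tumor necrosis factor or interleukin 1, acting through adaptor proteins, ubiquitin ligases such as cIAP1 (BIRC2) and cIAP2 (BIRC3) and the IkB kinases, cause the inhibitors to be degraded, and the released dimers bind DNA and switch on target genes. Many of these targets, among them NFKBIA, TNFAIP3, BIRC3 and RELB, encode parts of the pathway itself. In the liver the pathway is known for its part in inflammation and in the survival of hepatocytes.

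The values were FPKM, fragments scaled to transcript length and to the total mapped, given for each annotated transcript, and a gene's level was the sum over its listed transcripts. The sequence in front of the start of each gene is shown because an NF-kB dimer recognizes a 10-base DNA site, the NF-kB consensus. Both strands of the 250 bases before the first listed start were read from GRCh37 for 13022 genes, and 752 of these windows (5.77%) held the consensus. Among the 10 NF-kB pathway genes 5 windows did (50%), those of TNFAIP3, NFKB1, RELB, NFKBIA and BIRC3, and among 47 listed NF-kB targets 14 did (29.8%). The 47 targets include all of the 10 genes except RELA, so the same 5 windows count in both shares. These targets are known partly from such sites, and a match is a description of the letters, not evidence of binding in these cells. Capitals mark the matches in the first 3 sequences, which belong to genes that the pathway is known to induce. The window of NFKBIA lies on the minus strand at chr14:35873953-35874202, with its match 84 bases before the start. The window of RELB lies at chr19:45504438-45504687, with matches 97 and 25 bases before the start, and that of BIRC3 at chr11:102187976-102188225, with matches 210 and 146 bases before it. For TNFAIP2 there are a pair of windows, one before the first listed start (chr14:103589529-103589778) and one before the start given for the transcript TNFAIP2-201 (chr14:103592414-103592663), which carried most of the difference described in the next paragraphs. No match was found in either. In the second of them the capitals mark 17 bases that lie in an exon of another TNFAIP2 transcript; the rest is intronic in that transcript.
NFKBIA: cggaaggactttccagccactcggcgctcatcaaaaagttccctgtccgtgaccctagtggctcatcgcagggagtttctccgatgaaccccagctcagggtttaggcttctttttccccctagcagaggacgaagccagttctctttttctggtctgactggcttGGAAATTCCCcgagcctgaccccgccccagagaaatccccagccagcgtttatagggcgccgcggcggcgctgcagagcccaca
RELB: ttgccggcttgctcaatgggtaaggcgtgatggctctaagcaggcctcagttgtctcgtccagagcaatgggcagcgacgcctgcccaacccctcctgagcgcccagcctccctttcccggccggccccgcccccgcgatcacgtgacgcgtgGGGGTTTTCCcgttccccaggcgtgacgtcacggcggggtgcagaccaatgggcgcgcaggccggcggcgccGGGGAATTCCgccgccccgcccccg
BIRC3: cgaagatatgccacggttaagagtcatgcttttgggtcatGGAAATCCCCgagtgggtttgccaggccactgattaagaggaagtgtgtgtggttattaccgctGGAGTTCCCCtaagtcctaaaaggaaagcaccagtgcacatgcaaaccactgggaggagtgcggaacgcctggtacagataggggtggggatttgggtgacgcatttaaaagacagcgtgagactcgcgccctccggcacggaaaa
TNFAIP2, first start: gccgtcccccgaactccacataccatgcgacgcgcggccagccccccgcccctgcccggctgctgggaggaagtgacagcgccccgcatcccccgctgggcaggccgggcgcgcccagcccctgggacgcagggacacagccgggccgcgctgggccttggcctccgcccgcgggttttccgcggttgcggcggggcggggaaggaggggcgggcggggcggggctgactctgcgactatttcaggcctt
TNFAIP2-201 start: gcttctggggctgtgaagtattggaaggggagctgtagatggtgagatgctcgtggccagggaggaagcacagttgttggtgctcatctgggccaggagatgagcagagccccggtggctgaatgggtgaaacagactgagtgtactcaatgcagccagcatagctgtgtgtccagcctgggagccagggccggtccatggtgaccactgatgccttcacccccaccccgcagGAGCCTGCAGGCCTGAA

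TNFAIP2 (ENSG00000185215.8_3, GRCh37 chr14:103589779-103603776, plus strand) encodes M-Sec, a protein related to the exocyst subunit EXOC3 and known for its part in membrane protrusions between cells. Its level was 19.2 and 13.8 FPKM in shCtrl replicates 1 and 2, and 46.8 and 37 FPKM in shKIAA1429 replicates 1 and 2. Both knockdown samples lay above both control samples, which is what the gene was chosen for. The group means were 16.5 ± 3.81 FPKM for shCtrl and 41.9 ± 6.90 FPKM for shKIAA1429 (SD, n = 2), a ratio of 2.54. On the scale of log2(FPKM + 1), which is used for every log2 difference given here and understates the change of low genes, the difference was 1.30. Taken between samples of the same number it was 1.24 for replicates 1 and 1.36 for replicates 2.

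**Figure D1:**
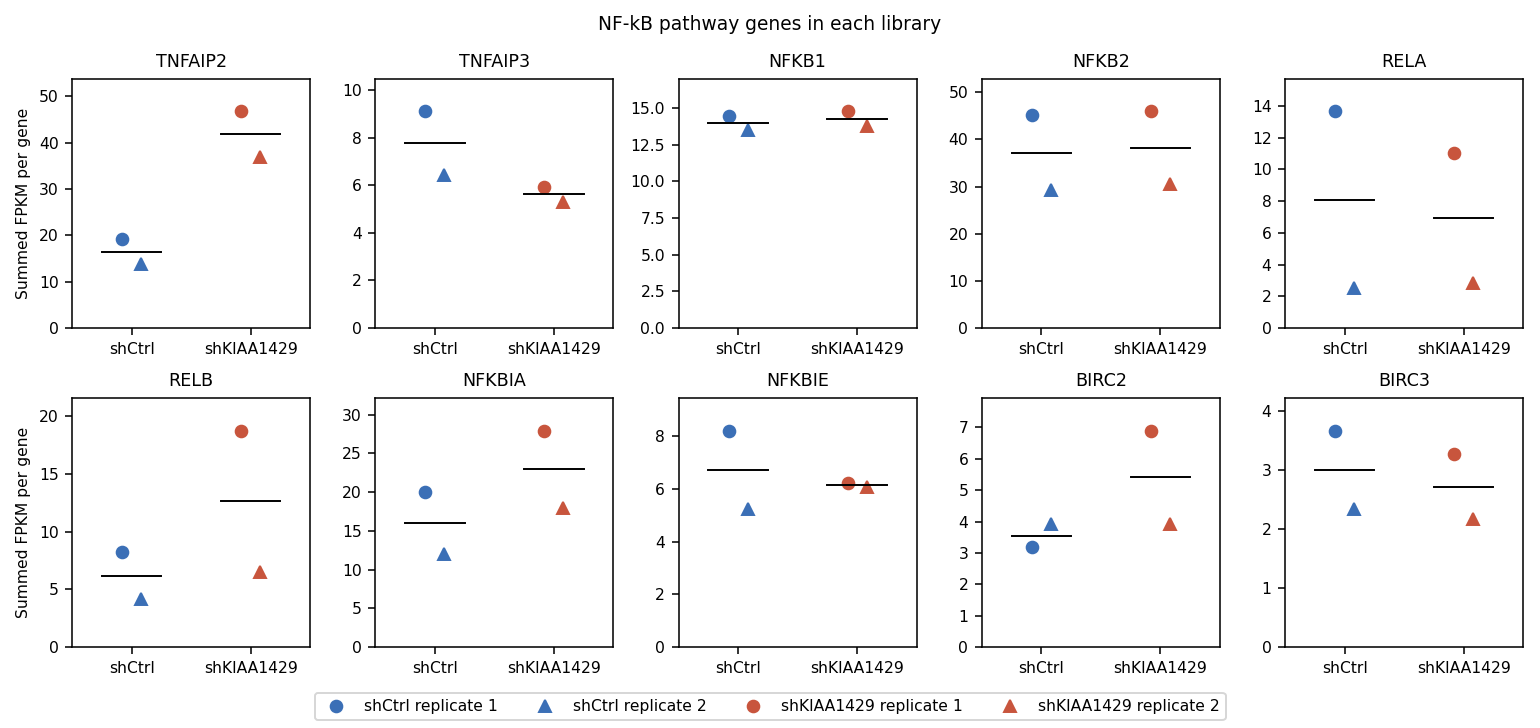
Summed FPKM of each gene (vertical axes, each starting at 0 with its own scale) in the 4 libraries, circles for replicate 1, triangles for replicate 2 and black lines for group means. TNFAIP2 separates the groups widely, with 13.8 and 19.2 FPKM in shCtrl and 37 and 46.8 FPKM in shKIAA1429, while RELA and NFKB2 separate the replicate numbers.

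The higher TNFAIP2 level lay in some of its 6 listed transcripts and not in others. TNFAIP2-201, a coding transcript, was listed near 0 in both control samples, with 0.0036 and 0.0016 FPKM, but reached 19.65 and 16.03 FPKM in the knockdown samples. TNFAIP2-204, a shorter coding transcript of the 3′ end of the gene, gave 5.62 and 4.19 FPKM in shCtrl but 16.9 and 11.4 FPKM in shKIAA1429. In both transcripts the groups did not overlap, and the knockdown samples were the high ones. TNFAIP2-209, the longest listed transcript, went the other way, with 8.03 and 5.96 FPKM in shCtrl and 4.37 and 3.48 FPKM in shKIAA1429, again without overlap. The remaining transcripts were low throughout. The noncoding TNFAIP2-203 measured 3.27, 2.17, 4.15 and 4.28 FPKM in shCtrl 1, shCtrl 2, shKIAA1429 1 and shKIAA1429 2. In the same order TNFAIP2-202 measured 1.21, 1.46, 1.65 and 1.78 FPKM. Both of these were also higher in the knockdown samples without overlap, with ratios of means of 1.55 for TNFAIP2-203 and 1.28 for TNFAIP2-202. TNFAIP2-208 was listed at 1.02 FPKM in shCtrl replicate 1 and at 0 in the other samples.

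The transcripts fall into 2 sets by where their listed models begin. TNFAIP2-202, TNFAIP2-203 and TNFAIP2-209 start within 19 bases of the first listed start, whereas TNFAIP2-201, TNFAIP2-208 and TNFAIP2-204 start 2885, 4134 and 9306 bases downstream. In TNFAIP2-208 and TNFAIP2-204 the coding sequence begins at the first exonic base, so these models may be cut short at the 5′ end. Whether transcription starts at any of the downstream positions was not tested. The upstream set summed to 12.5 and 9.59 FPKM in shCtrl and to 10.2 and 9.53 FPKM in shKIAA1429, a log2 difference of -0.14 with overlapping groups. Within this set TNFAIP2-209 was lower in the knockdown samples, and TNFAIP2-202 and TNFAIP2-203 were higher. The downstream set summed to 6.65 and 4.19 FPKM in shCtrl and to 36.6 and 27.5 FPKM in shKIAA1429, a ratio of means of 5.91 and a log2 difference of 2.38. The upstream set made up 65.3% and 69.6% of the gene in the control samples but 21.8% and 25.8% in the knockdown samples. This division was made after the transcript values had been seen.

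**Figure D2:**
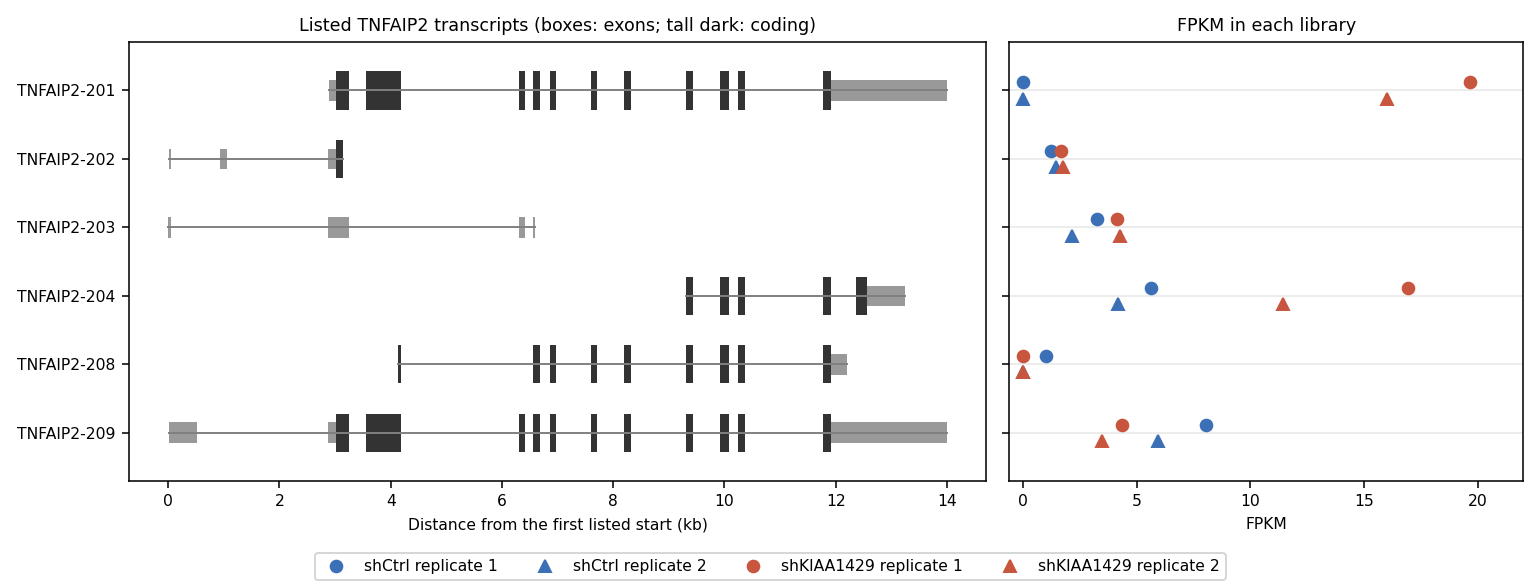
Left, the 6 listed TNFAIP2 transcripts drawn to scale by distance from the first listed start in kilobases, with grey boxes for exons and tall dark boxes for coding sequence; right, the FPKM of each in the 4 libraries. TNFAIP2-201 and TNFAIP2-204 are high in both shKIAA1429 libraries, and TNFAIP2-209 is lower there than in shCtrl.

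Most of the bases of these transcripts are shared, which limits how a read can be assigned to any of them. All 4175 exonic bases of TNFAIP2-201 are also exonic in TNFAIP2-209, which has 4683 exonic bases in 12 exons, and both hold the same 1962 coding bases, so they encode the same protein. TNFAIP2-209 differs by 508 further bases at its 5′ end, and TNFAIP2-204 has 2 bases of its own outside the exons of TNFAIP2-209. The sum of TNFAIP2-201 and TNFAIP2-209, transcripts of similar length, was 8.04 and 5.96 FPKM in shCtrl and 24.0 and 19.5 FPKM in shKIAA1429, a ratio of means of 3.11. With each transcript weighted by its exonic length the gene gave a log2 difference of 1.41, with 23.5, 16.99, 61.7 and 48.8 FPKM in shCtrl 1, shCtrl 2, shKIAA1429 1 and shKIAA1429 2. With the transcripts listed at or near 0 in some samples, TNFAIP2-201 and TNFAIP2-208, left out, the log2 difference was 0.56 and the groups still did not overlap. The start that the files give for TNFAIP2-201 lies inside the second exon of TNFAIP2-209 and is not its start in GENCODE 44, so a start of transcription at that base was not tested. The files gave no strand rule, and in GENCODE 44 minus strand noncoding RNAs, none of them listed here, lie near the upstream end of the gene. Of these, LINC00677 and ENSG00000289917 end at positions 103589344 and 103587981, before the first listed start of TNFAIP2 at 103589779.

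Few transcripts were under 0.1 FPKM in the pair of controls and at 5 FPKM or more in the pair of knockdown samples. Of the 38510 listed transcripts 14 were (0.0364%), TNFAIP2-201 among them, and 24 did the reverse (0.0623%). Of the 14, 12 had a model in GENCODE 44, and in 7 of these 12 every exonic base was part of another listed transcript of the same gene, against 5714 of 37441 transcripts (15.3%) overall and 3 of the 22 with a model that did the reverse. How reads were divided between such transcripts was not tested. Among the 34 transcripts of the NF-kB pathway genes, 6 were under 0.05 FPKM in a sample and at 1 FPKM or more in another, where 9% of all listed transcripts were. These included TNFAIP2-201 and TNFAIP2-208, of the gene that was chosen by these same values. Among the 28 transcripts of the 9 other genes they were NFKB1-206, NFKB1-211, NFKBIA-207 and BIRC2-213.

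None of the 9 other genes passed the thresholds of the test, to which TNFAIP2 was not put. In a limma fit over all 11657 genes with at least 1 FPKM in at least 2 samples, 0 of the 9 had an adjusted p under 0.05 with an absolute log2 fold change over 1, and the smallest adjusted p among them was 0.939, that of TNFAIP3. No gene of the 11657 (0%) was called, so the count of 0 is the background count too. At an unadjusted p under 0.05 the fit gave 656 genes (5.63%) and 0 of the 9, and 125 genes (1.07%) and 0 of the 9 had an absolute log2 fold change over 1. Of the 9, 5 were higher and 4 lower, with a median log2 fold change of 0.03 beside -0.01 over all genes tested. BIRC2 alone lay higher in both knockdown samples than in both controls, and TNFAIP3 alone lay lower, whereas 16.9% and 16.7% of all genes did.

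The DNA-binding subunits came first. NFKB1, whose product is p105 and its processed form p50, measured 14.4 and 13.5 FPKM in shCtrl and 14.8 and 13.8 FPKM in shKIAA1429, and its log2 fold change was 0.03 ± 0.14 (SE, limma adjusted p = 0.999). Its values spanned a narrow range, and the groups overlapped. NFKB2, which encodes p100 and p52 of the alternative pathway, measured 45.3 and 29.2 FPKM in shCtrl and 46.0 and 30.5 FPKM in shKIAA1429, and its log2 fold change was 0.04 ± 0.30 (limma adjusted p = 0.999). Here replicates 1 were the high samples in each group. RELA, the p65 subunit that carries the activation domain of the main dimer, measured 13.7 FPKM in shCtrl replicate 1 and 2.49 FPKM in shCtrl replicate 2. In shKIAA1429 replicates 1 and 2 it measured 11.02 and 2.84 FPKM, and its log2 fold change was -0.08 ± 0.86 (limma adjusted p = 0.999). No other gene of the 9 differed as much between replicates, by 5.49 times within shCtrl and 3.89 times within shKIAA1429, and its standard error was the largest of the 9.

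RELB, the partner of p52, measured 8.25 and 4.15 FPKM in shCtrl and 18.8 and 6.54 FPKM in shKIAA1429. Its log2 fold change was 0.82 ± 0.54, the largest positive value of the 9, at a limma adjusted p of 0.954. The groups overlapped, since shKIAA1429 replicate 2 lay below shCtrl replicate 1, and the log2 fold change ran from 0.13 without shKIAA1429 replicate 1 to 1.52 without shKIAA1429 replicate 2. Most of the high value came from 1 transcript, RELB-202, at 3.57, 1.14, 16.5 and 2.09 FPKM in shCtrl 1, shCtrl 2, shKIAA1429 1 and shKIAA1429 2. The other listed RELB transcripts lay between 0.67 and 3.31 FPKM. The fifth subunit, REL, was listed between 0.66 and 0.87 FPKM and did not reach the filter.

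The inhibitors and feedback genes had log2 fold changes of either sign, none of which passed the test. NFKBIA, which retains NF-kB in the cytoplasm and is among its fastest targets, measured 20.1 and 12.1 FPKM in shCtrl and 27.9 and 18 FPKM in shKIAA1429, and its log2 fold change was 0.50 ± 0.32 (limma adjusted p = 0.954). The groups overlapped, but each knockdown sample lay above the control of its own number. NFKBIE, with a single listed transcript, measured 8.21 and 5.23 FPKM in shCtrl and 6.22 and 6.06 FPKM in shKIAA1429, and its log2 fold change was -0.09 ± 0.23 (limma adjusted p = 0.999). TNFAIP3, the ubiquitin-editing enzyme A20 that ends the signal, measured 9.10 and 6.41 FPKM in shCtrl and 5.94 and 5.31 FPKM in shKIAA1429. Both knockdown samples lay under both controls, and the log2 fold change was -0.39 ± 0.20 (limma adjusted p = 0.939), opposite in sign to that of TNFAIP2.

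The inhibitor of apoptosis proteins cIAP1 and cIAP2 act as ubiquitin ligases at the tumor necrosis factor receptor. BIRC2 measured 3.17 and 3.91 FPKM in shCtrl and 6.90 and 3.91 FPKM in shKIAA1429, so that both replicates 2 were nearly equal and shKIAA1429 replicate 1 alone stood out. Its log2 fold change was 0.46 ± 0.27 (limma adjusted p = 0.954). BIRC3 measured 3.68 and 2.34 FPKM in shCtrl and 3.27 and 2.18 FPKM in shKIAA1429, and its log2 fold change was -0.10 ± 0.25 (limma adjusted p = 0.999), with replicates 1 the high samples.

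Single transcripts of these genes were fitted among 24996 transcripts, and 0 of these were called (0%). Of the 28 transcripts of the 9 genes 19 could be tested, 4 lay higher in both knockdown samples (16.7% of all transcripts tested) and 2 lay lower (16.8%). With NFKBIA-207 left aside, NFKB2-203 alone of the 19 had an unadjusted p under 0.05, which 6.28% of all transcripts tested had. The noncoding NFKBIA-207 was listed at 0 in both controls and at 3.45 and 2.54 FPKM in the knockdown samples. It entered the test only through the samples where it was high, so its place among the 4 was fixed in advance. For that reason no p is given for it. The main coding NFKBIA-209 stood at 12.9, 9.47, 19.7 and 13.5 FPKM in shCtrl 1, shCtrl 2, shKIAA1429 1 and shKIAA1429 2. NFKB2-203 gave 15.5 and 8.93 FPKM in shCtrl but 2.32 and 4.08 FPKM in shKIAA1429 (unadjusted p = 0.0145, limma adjusted p = 0.528). NFKB2-201 took the other direction, with 19.4 and 13.9 FPKM in shCtrl and 32.6 and 18.5 FPKM in shKIAA1429, and the sum over NFKB2 stayed nearly level, as its values above show. In RELA the difference between replicates lay in the coding RELA-201, at 11.7, 0.97, 6.71 and 1.601 FPKM in shCtrl 1, shCtrl 2, shKIAA1429 1 and shKIAA1429 2. In GENCODE 44 the spans of TNFAIP3, NFKB1, RELA and BIRC3 overlap noncoding genes of the other strand that were not listed here. Among these are WAKMAR2 with TNFAIP3, RELA-DT with RELA and a microRNA gene, AF213884.3, within NFKB1. Without a stated strand rule, reads from the overlapping parts cannot be told apart.

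A wider list of pathway genes gave the same count. It named 107 genes, of which 89 were listed and 85 could be tested, and 0 of the 85 passed both thresholds. Of the 85, 47 were higher and 38 lower, 16 lay higher in both knockdown samples (18.8%) and 10 lay lower (11.8%), and the median log2 fold change was 0.04. Of the 16, C3 and IRAK4 had entered the test only through the knockdown samples. An unadjusted p under 0.05 was given to 6 of the 85 (7.06%, 3 higher and 3 lower), against 5.63% of all genes. Among the inhibitors the largest values were those of TNIP2 and NFKBIA. TNIP2, a ubiquitin-binding partner of A20, measured 10.2 and 10.3 FPKM in shCtrl and 19.4 and 14.5 FPKM in shKIAA1429, and its log2 fold change was 0.66 ± 0.18 (limma adjusted p = 0.748).

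Among the receptors and adaptors MYD88, the adaptor of the interleukin 1 and Toll-like receptors, measured 1.69 and 2.03 FPKM in shCtrl and 6.76 and 2.96 FPKM in shKIAA1429, and its log2 fold change was 0.96 ± 0.35 (limma adjusted p = 0.884). TRAF3, which restrains the alternative pathway, measured 6.32 and 7.57 FPKM in shCtrl and 2.48 and 4.14 FPKM in shKIAA1429, and its log2 fold change was -0.91 ± 0.24 (limma adjusted p = 0.730). The groups did not overlap in either gene. Among the kinases and ubiquitin enzymes IKBKG, the regulatory subunit NEMO of the IkB kinase, measured 8.05 and 8.36 FPKM in shCtrl and 5.19 and 3.32 FPKM in shKIAA1429, and its log2 fold change was -0.83 ± 0.22 (limma adjusted p = 0.730). UBE2V1, a cofactor for ubiquitin chains in this pathway, followed with a log2 fold change of -0.59 ± 0.28 (limma adjusted p = 0.918), its values being 41.2 and 70.1 FPKM in shCtrl and 32.7 and 38.3 FPKM in shKIAA1429. These genes thus pointed both ways, and none passed the adjusted threshold.

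**Figure D3:**
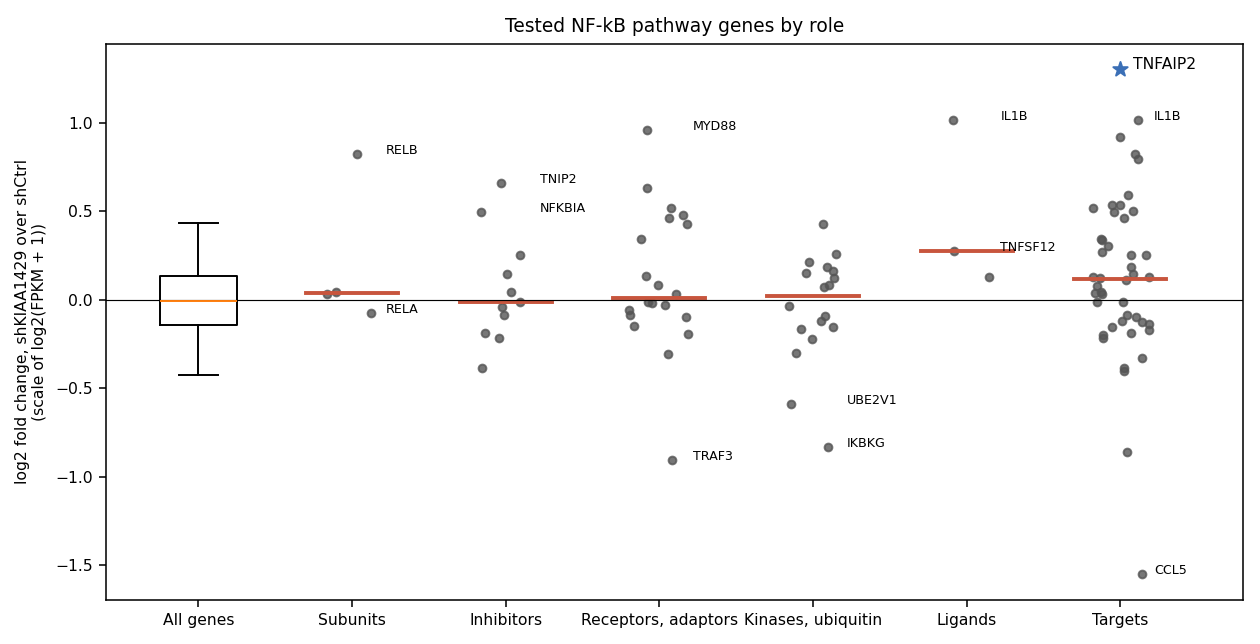
log2 fold change (shKIAA1429 against shCtrl, scale of log2(FPKM + 1)) for the tested NF-kB pathway genes by role (points, each a gene; red lines, medians without TNFAIP2), beside a box of all 11657 genes tested (box, quartiles; whiskers, 5th to 95th percentile). The medians of the role groups run from -0.01 for inhibitors to 0.27 for the 3 ligands, and the targets lie on both sides of 0, between CCL5 at -1.55 and IL1B at 1.02, with TNFAIP2 at 1.30.

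The targets and ligands bear most directly on whether TNFAIP2 was accompanied. Of 59 named targets besides TNFAIP2, 46 were listed and 44 tested, 0 passed both thresholds, and 27 were higher and 17 lower. Both knockdown samples lay above both controls in 9 (20.5%) and below in 2 (4.55%), beside 16.9% and 16.7% of all genes, and the median log2 fold change was 0.12. Its sign rested on single samples: leaving out shCtrl replicate 2 turned the median to -0.04, and leaving out shCtrl replicate 1 moved it to 0.24. Of the targets outside the 10 genes, 25 had a mean of at least 5 FPKM, and their log2 fold changes ran from -1.55 to 1.02 with a median of 0.07. TNF, LTA, LTB, CCL20 and VCAM1 were not among the listed transcripts and were not analysed here.

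Among these 25 targets the largest positive log2 fold changes were those of IL1B, CSF1 and MYC, none of which passed the adjusted threshold. Below that mean, the complement gene C3, named after its values were seen, gave 0.83 and 0.22 FPKM in shCtrl but 2.86 and 1.06 FPKM in shKIAA1429, and it entered the test only through the knockdown samples. IL1B, which encodes the cytokine interleukin 1 beta and is also a ligand of the pathway, measured 11.8 and 5.84 FPKM in shCtrl and 23.7 and 13.5 FPKM in shKIAA1429, and its log2 fold change was 1.02 ± 0.40 (limma adjusted p = 0.888). CSF1, the growth factor of macrophages, measured 9.52 and 6.40 FPKM in shCtrl and 17.3 and 11.8 FPKM in shKIAA1429, and its log2 fold change was 0.80 ± 0.27 (limma adjusted p = 0.872). In both genes the groups did not overlap, and replicate 1 exceeded replicate 2 within each group, as it did in TNFAIP2. MYC, a transcription factor of cell growth, measured 12.7 and 23.7 FPKM in shCtrl and 32.7 and 20.0 FPKM in shKIAA1429, with overlapping groups (log2 fold change 0.53 ± 0.37, limma adjusted p = 0.960). IRF1 (0.53 ± 0.23) and SOD2 (0.52 ± 0.22), named after their values were seen, came next (limma adjusted p = 0.901 for each). Both belong to the 9 of the 44 targets that lay above without overlap, beside the 2 that lay below. The ligand TNFSF12 (TWEAK), which acts through the alternative pathway, measured 5.56 and 4.63 FPKM in shCtrl and 6.76 and 5.95 FPKM in shKIAA1429, and its log2 fold change was 0.27 ± 0.17 (limma adjusted p = 0.954).

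The lowest log2 fold changes, likewise short of the adjusted threshold, were those of CCL5, IL6 and PTX3, all secreted proteins of inflammation. CCL5, a chemokine that interferon also induces, measured 22.8 and 10.9 FPKM in shCtrl and 6.35 and 3.47 FPKM in shKIAA1429, without overlap, and its log2 fold change was -1.55 ± 0.42 (unadjusted p = 0.0143, limma adjusted p = 0.730). IL6 measured 20.8 and 8.44 FPKM in shCtrl and 10.7 and 4.33 FPKM in shKIAA1429, and its log2 fold change was -0.86 ± 0.55 (limma adjusted p = 0.954). Its groups overlapped, although each knockdown sample lay below the control of its number. PTX3 measured 26.7 and 12.9 FPKM in shCtrl and 17.8 and 10.7 FPKM in shKIAA1429, and its log2 fold change was -0.40 ± 0.41 (limma adjusted p = 0.985). Among the tested cytokine and chemokine targets IL1B, CSF1, CXCL8 (0.59), CCL2 (0.34), IL1A (0.13) and CXCL1 (0.12) had the sign of TNFAIP2. CCL5, IL6 and CXCL2 (-0.14) had the opposite one. In CXCL8, CCL2, IL1A, CXCL1 and CXCL2, named after their values were seen, the groups overlapped. With the interferon-responsive genes and the members left out, 33 targets remained, of which 21 were higher and 12 lower, with a median log2 fold change of 0.13. Both knockdown samples lay above both controls in 7 of the 33 (21.2%), beside 16.9% of all genes, and below in 0. Among the 7, C3 entered the test only through the knockdown samples. The 2 targets that lay below, TNFAIP3 and CCL5, were among the genes left out. The count of 0 thus follows from that choice, which was made after the values had been seen.

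The replicate numbers separated 7 of the 9 genes and the groups 2 of them. In 7 of the 9 genes both replicates 1 lay above both replicates 2, namely NFKB1, NFKB2, RELA, RELB, NFKBIA, NFKBIE and BIRC3, where 22% of all genes did so. The reverse, both replicates 1 below both replicates 2, held for 0 of the 9 but for 25.1% of all genes. Replicate numbers thus separated many genes outside this pathway too. Replicates 1 were likewise above in 26 of the 44 targets (59.1%) and in 36 of the 85 genes of the wider list (42.4%), and below in 3 (6.82%) and 12 (14.1%). These lists overlap with each other and with the 9 genes. Among the 36 tested targets that are not members, replicates 1 were above in 20 (55.6%) and below in 3 (8.33%). CXCL2, a neutrophil chemokine named here after its values were seen, measured 15.6 and 4.84 FPKM in shCtrl and 12.5 and 4.98 FPKM in shKIAA1429, and IL6 differed 2.47 times between replicates in each group. Deviations of the replicates 1 from their group means correlated between the groups with r = 0.324 across 11657 genes and r = 0.654 across the 85 genes of the wider list. Genes are not independent replicates, and these points share libraries, so the correlations are descriptions. The labels name no batch, and what set the replicates apart was not tested. In TNFAIP2 replicate 1 was the higher in each group too, by 1.39 times in shCtrl and 1.26 times in shKIAA1429, less than the difference between the groups.

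**Figure D4:**
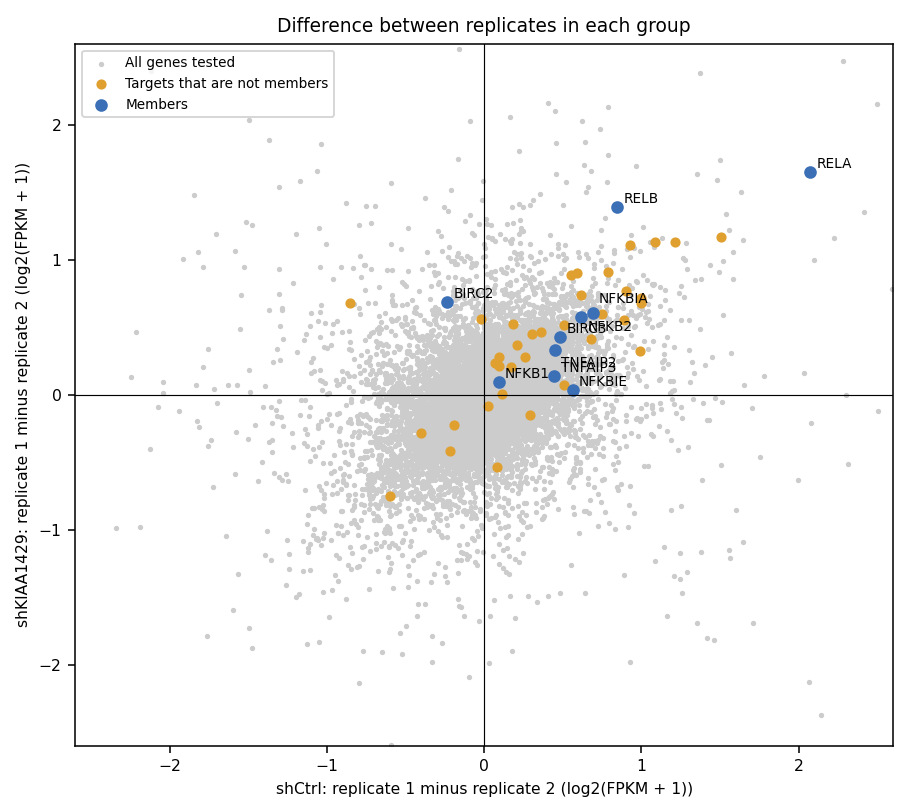
Difference of replicate 1 minus replicate 2 in log2(FPKM + 1), shCtrl on the horizontal and shKIAA1429 on the vertical axis, for all genes tested (grey), NF-kB targets (orange) and the 10 NF-kB pathway genes (blue); 19 genes lie outside the axes. Most blue and orange points lie in the upper right, where replicate 1 is the higher in both groups, with RELA farthest out.

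The 5 genes whose pattern over the 4 samples was most like that of TNFAIP2 were not of this pathway list, but CSF1 and IL1B, which are, came at ranks 15 and 17. TNFAIP2 was chosen by these same values, so the ranks are a description. Likeness was the Euclidean distance between log2(FPKM + 1) values, each centred on its mean over the 4 samples, among 7475 genes with a mean of at least 5 FPKM, so it selects genes with a difference of like size. The nearest were F11R (distance 0.223), ZNF512 (0.348), IGFBP2 (0.354), ABHD14B (0.356) and COL6A1 (0.403). F11R, a tight junction adhesion protein, measured 5.12 and 4.55 FPKM in shCtrl and 14.5 and 11.5 FPKM in shKIAA1429. The nearest of the NF-kB list were CSF1 at rank 15 and IL1B at rank 17, then TNIP2 at rank 56, IRF1 at rank 68 and NFKBIA at rank 100, and after them SOD2, TAB2 and TNFRSF12A at ranks 120, 127 and 178; IRF1 and the last 3 were named after their values were seen. EXOC3, the exocyst subunit to which TNFAIP2 is related, measured 19.9 and 11.99 FPKM in shCtrl and 18.7 and 19.3 FPKM in shKIAA1429, and its log2 fold change was 0.28 ± 0.26 (limma adjusted p = 0.979). The small GTPases RALA and RALB, known partners of the exocyst, had log2 fold changes of -0.04 and -0.26, and EXOC3L1, EXOC3L2 and EXOC3L4 were not among the listed transcripts.

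As checks of the samples, VIRMA gave 9.37 and 14.1 FPKM in shCtrl and 6.90 and 8.52 FPKM in shKIAA1429, and its log2 fold change was -0.53 ± 0.24 (limma adjusted p = 0.917), lower in both knockdown samples without passing the threshold. Of 4 epithelial markers KRT8 and KRT18 were listed, between 971 and 1176 FPKM, while EPCAM and CDH1 were not among the listed transcripts. Of 10 hepatocyte markers only SERPINA1 was listed, at 3.34 to 5.63 FPKM, and albumin was not among the listed transcripts. Of 8 immune markers CD14 (2.68 to 4.12 FPKM) and CD68 (44.1 to 52.3 FPKM) were listed, of 4 endothelial markers none, and of 5 fibroblast markers 4, led by COL3A1 at 55.8 to 63.6 FPKM. PTPRC, the common marker of leukocytes, was not among the listed transcripts. FPKM summed to between 370253.5 and 390224.4 per library. Read depth is unknown, so no counting error can be attached to a value. In these bulk samples fewer cells expressing a gene and less RNA per cell cannot be told apart.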

How the data were processed

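RNA from 4 HCCLM3 samples was sequenced, and groups and replicate numbers were taken from the sample titles. The deposited files hold FPKM per annotated transcript, which the authors made with software not given in the sources used here. The submitters' processing notes name Bowtie2 2.1.0 and hg19. The authors' methods describe counts and a count test, but no counts were used here. All listed transcripts reached at least 0.504 FPKM in some sample.

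FPKM were summed per gene. A gene entered the test with 1 FPKM or more in 2 or more samples, and log2(FPKM + 1) was compared between groups with limma 3.58.1 in R 4.3.3 (lmFit, then eBayes with trend; two-sided; 2.87 prior degrees of freedom; no covariate), with Benjamini-Hochberg adjustment over all 11657 genes or 24996 transcripts tested. A gene was called at an adjusted p under 0.05 with a log2 fold change beyond 1 in either direction. The fit was tested on simulated data. Exons came from GENCODE 44 lifted to GRCh37, clipped to the spans in the files, and 31 of the 34 transcripts had a model. Sequence came from GRCh37. Positions are 1-based.

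The genes and lists were chosen with earlier results of these data known. Named genes were the 10 genes, the 2 genes of each role with the largest absolute log2 fold change (mean of at least 1 FPKM), genes of the wider list with an unadjusted p under 0.05, the 3 highest and 3 lowest targets with a mean of at least 5 FPKM, the 5 genes most like TNFAIP2, the EXOC3 family and VIRMA. Alternatives were a pseudocount of 0.1, other filters, upper quartile scaling, the replicate block, a robust variance, leaving out each sample, the fold change alone, and other sums over transcripts. The length-weighted sum, the sets by start, the sum without near-zero transcripts and the targets without interferon genes were chosen after seeing the data. Python 3.11.15 and matplotlib 3.10.9 drew the figures.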

Additional observations from a re-analysis of the deposited data

How the results depend on the processing

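The log2 difference of TNFAIP2, 1.30, stayed between 1.08 and 1.53 when single samples were left out, and was 1.35 with a pseudocount of 0.1, 1.39 over its protein-coding transcripts and 1.41 with length weights. It depended on the transcripts summed: it was -0.69 for the longest transcript alone and 0.56 without the 2 transcripts at or near 0. For the transcripts with listed starts upstream it was -0.14, and for those with listed starts downstream it was 2.38. No called gene appeared among the 9 other genes under any alternative run. Only 4 of the 9 were fitted with the longest transcript alone, and 7 with the length-weighted sum. In the tests that used all samples no gene at all was called, so this is the background result too. By fold change alone, 2 genes of the wider list, 2 targets (IL1B and CCL5, the same in both lists) and 125 of all genes passed; in the tests, leaving out single samples gave 0 to 1 calls over all genes, the 1 (HIST4H4) without shCtrl replicate 1. Leaving out single samples turned the sign of several log2 fold changes that were not called, with ranges of -0.016 to 0.078 for NFKB1, -0.27 to 0.35 for NFKB2, -1.11 to 0.96 for RELA, -0.37 to 0.20 for NFKBIE and -0.34 to 0.14 for BIRC3 (RELB, at 0.13 to 1.52, kept its sign), and of the medians, with ranges of -0.04 to 0.24 for the targets and -0.27 to 0.34 for the 9 genes. The remaining sample of a group was then assumed to vary like the other group. Without shKIAA1429 replicate 2 an unadjusted p under 0.05 was given to 15 of the 85 genes of the wider list (17.6%, beside 6.30% of all genes) instead of 6 (7.06%, beside 5.63%). The samples share replicate numbers, but nothing in the labels ties equal numbers to a shared culture or day. With the replicate block, which leaves 1 residual degree of freedom, 0 genes were called, an unadjusted p under 0.05 was given to 1269 genes (10.9%) instead of 656 and to 17 genes of the wider list (20%) instead of 6, and the smallest adjusted p of the 9 genes was 0.377 instead of 0.939. The length-weighted sum could not be computed for RELB and TNFAIP3, whose transcripts lack a model in part. Depth is unknown, and 2 samples a group limit what could be called.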
